A study of Mus musculus with 10 samples.

Results

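The semaphorin, ephrin, Slit and netrin guidance genes are the ligands and receptors that steer migrating cells and growing axons. They were taken here as every gene whose symbol in the array's probe annotation belongs to the Sema, Plxn, Epha, Ephb, Efna, Efnb, Slit, Robo or Ntn families, plus Nrp1 and Nrp2, with Slitrk genes left out. The rule uses names and no measured value. It gave 56 genes on 95 probe sets, out of 12393 genes with a symbol of their own and 22690 probe sets in all. Of the 56 genes, 17 were semaphorins, 7 plexins, 2 neuropilins, 8 EphA and 3 EphB receptors, 5 ephrins of class A and 3 of class B, 3 Slits, 3 Robos, 3 netrins and 2 of the netrin-G type. A total of 35 passed the filter on low signal and were tested, among 8397 genes tested.

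The samples were primary mouse embryonic fibroblasts (MEFs), connective tissue cells grown from E13.5 embryos of a C57BL/6 and 129 mixed background. There were 3 wild type, 3 Snf5-/- and 4 Brg1-/- arrays, measured on Affymetrix arrays that read each gene with 1 or more probe sets. Smarcb1 encodes Snf5, a core subunit, and Smarca4 encodes Brg1, an ATPase, of SWI/SNF, a complex that uses ATP to move nucleosomes, and the series title names nucleosome occupancy at target promoters as its subject. The protocol given for all 10 arrays, wild type included, is Cre recombinase carried in by a retrovirus and selection in puromycin at 2.5 ug/ml. The labels do not say which allele Cre acts on in the wild type cells, or whether the replicates of a genotype are separate embryos or cultures, so p-values cover only the spread from array to array, which may be technical.

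Guidance cues work in ligand and receptor pairs. Secreted class 3 semaphorins bind a neuropilin that is joined to a plexin, while membrane-bound semaphorins mostly bind plexins directly, and activated plexins act on small GTPases and on the actin cytoskeleton. Ephrins sit in the membrane of one cell and bind Eph receptor tyrosine kinases on its neighbour, with signals running into both cells. Slits are secreted and bind Robo receptors, and netrins are laminin-related proteins that bind Dcc, neogenin and Unc5 receptors. These families are known from axon guidance, and they also act in blood vessels, in neural crest and in mesenchyme, from which fibroblasts derive.

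The promoters of 4 of these genes are printed first, because the series concerns nucleosomes at promoters and these genes, from 4 different families, are described in full further on. Slit3 rose in both mutants, Efnb2 and Epha2 fell in both, and Plxnd1 fell in the Brg1-/- cells. Each sequence is 5′ to 3′ on the strand of the gene and runs from 250 bases before the RefSeq start to 50 bases after it, in build GRCm38.p6. Capitals mark the motifs searched, on both strands, which were the GC box GGGCGG, the CCAAT box CCAAT, the TATA box TATAAA, the AP-1 site TGANTCA, the E-box CACGTG and the cyclic AMP response element TGACGTCA.
Slit3, chr11:35121206-35121505, plus strand: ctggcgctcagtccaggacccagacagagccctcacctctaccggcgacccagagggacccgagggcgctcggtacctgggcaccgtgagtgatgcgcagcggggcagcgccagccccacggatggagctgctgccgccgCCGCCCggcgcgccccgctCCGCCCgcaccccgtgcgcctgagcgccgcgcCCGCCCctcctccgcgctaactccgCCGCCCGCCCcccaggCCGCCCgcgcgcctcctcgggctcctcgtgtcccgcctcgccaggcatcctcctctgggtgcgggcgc
Efnb2, chr8:8661193-8661492, minus strand: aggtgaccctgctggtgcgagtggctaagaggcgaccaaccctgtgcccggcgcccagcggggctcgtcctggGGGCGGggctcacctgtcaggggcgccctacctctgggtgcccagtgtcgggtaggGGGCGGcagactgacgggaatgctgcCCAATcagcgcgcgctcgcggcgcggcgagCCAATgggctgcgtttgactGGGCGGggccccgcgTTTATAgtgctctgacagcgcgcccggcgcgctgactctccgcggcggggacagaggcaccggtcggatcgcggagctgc
Plxnd1, chr6:115994956-115995255, minus strand: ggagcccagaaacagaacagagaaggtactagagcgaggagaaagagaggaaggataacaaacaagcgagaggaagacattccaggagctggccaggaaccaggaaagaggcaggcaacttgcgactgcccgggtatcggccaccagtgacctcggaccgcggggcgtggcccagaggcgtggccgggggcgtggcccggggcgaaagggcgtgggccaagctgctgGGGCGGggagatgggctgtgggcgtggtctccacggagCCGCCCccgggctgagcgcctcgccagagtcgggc
Epha2, chr4:141300971-141301270, plus strand: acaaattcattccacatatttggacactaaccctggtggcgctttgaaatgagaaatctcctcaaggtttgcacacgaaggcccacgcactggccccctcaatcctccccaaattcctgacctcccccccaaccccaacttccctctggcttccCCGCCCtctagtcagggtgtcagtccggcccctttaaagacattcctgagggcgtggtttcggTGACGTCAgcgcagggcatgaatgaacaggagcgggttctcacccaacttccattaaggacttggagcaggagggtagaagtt

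The Slit3 window held 6 GC boxes, all on the opposite strand, which begin 110, 91, 59, 34, 30 and 18 bases before the start, and those at 34 and 30 overlap each other. The Efnb2 window held 3 GC boxes, 2 CCAAT boxes and, 30 bases before the start, a TATA box on the opposite strand. The Plxnd1 window, whose start lies inside the outermost boundary of the gene, held GC boxes 23 bases before and 15 bases after it. In Epha2 the capitals are a GC box 96 bases and a cyclic AMP response element 33 bases before the start. Over the 49 guidance genes with a promoter in the RefSeq table, 38 held a GC box (77.6%), against 35.9% of the 27025 promoters of the whole table, which include predicted and noncoding genes. The median GC content of the guidance promoters was 64.7% against 52.7% for the table. Of the other motifs, a CCAAT box stood in 13 (26.5%) against 37.9%, a TATA box in 2 (4.08%) against 14.2%, an AP-1 site in 1 (2.04%) against 7.93%, an E-box in 3 (6.12%) against 7.24%, and the cyclic AMP response element in 1 (2.04%), which is Epha2, against 1.88%. A match describes letters in a window and is not a measured binding site, and the motif content of the windows that follow a change in expression was not compared.

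Values are MAS5 intensities as the authors deposited them, quantile-normalized here because the array medians of the deposited values ran from 146 to 234 and were highest in the wild type arrays. Changes are log2 differences with the standard error (SE) of the limma fit, and adjusted p-values are Benjamini-Hochberg values over all genes tested. A gene is said to have risen or fallen where it passed 0.05 both on the quantile-normalized scale and on the deposited log2 scale. On the deposited scale the median change over all genes tested was -0.27 in Snf5-/- and -0.47 in Brg1-/- cells, against 0.02 in both after normalization. The targeted genes bear out the labels. Smarcb1 was 773 ± 51.5 (SD, n = 3) in wild type and 298 ± 0.883 (n = 3) in Snf5-/- arrays, a change of -1.37 ± 0.11 (limma, adjusted p = 1.97e-05). Smarca4 was 2181 ± 196 (n = 3) in wild type and 516 ± 113 (n = 4) in Brg1-/- arrays, a change of -2.10 ± 0.14 (limma, adjusted p = 2.24e-06). All 13 fibroblast markers were above background on every array. Of them, Col3a1 rose (1.86) and S100a4 fell (-1.43) in Snf5-/- cells. In Brg1-/- cells S100a4 (-2.44) and Pdgfrb (-0.83) fell. Markers of other cell types were at background only in part. Tie1 (1 of 11 endothelial markers), Snap25 (1 of 12 neuronal), Epcam (1 of 10 epithelial), Olig2 (1 of 7 glial) and Tnnc2 and Tnnt1 (2 of 10 of skeletal muscle) were at or below it on every array, while Stmn2, Ncam1, Gap43, Krt19, Krt18, Eng and Lyz2 of the same and the macrophage and leukocyte lists were above it on every array. The skeletal muscle markers summed to 5130.1 to 6164 in wild type, 846 to 2010.1 in Snf5-/- and 682 to 1030.1 in Brg1-/- arrays. Acta1, skeletal muscle actin, made up most of the wild type sum, with means of 4713, 815 and 345 in the same order. It changed by -2.67 and -3.79 (limma, adjusted p = 0.000166 and 5.57e-06). Of the 3 tested, only Acta1 fell in Snf5-/- cells, and Acta1 and Des fell in Brg1-/- cells. Ckm gave -0.17 and -0.0049 (limma, adjusted p = 0.681 and 0.989). The 15 macrophage and leukocyte markers summed to 2968 to 6177, 3389 to 12451 and 2780.4 to 6652. Of the 12 tested, only C1qb and C1qc of complement rose, in both mutants (1.85 and 1.73 in Snf5-/-, 1.39 and 1.58 in Brg1-/-). None of the 12 fell, and their median change was 0.33 in Snf5-/- and -0.0057 in Brg1-/- cells. Epithelial sums were 1412 to 1796, 1080.2 to 1650.2 and 826 to 1063, and neuronal sums 3573 to 3896, 3239.6 to 4937 and 3033 to 3475. Of 6 epithelial markers tested, Dsp fell in Snf5-/- cells (-3.24), and Dsp (-3.67), Cldn4 (-2.15) and Krt18 (-1.67) fell in Brg1-/- cells. Of 5 neuronal markers tested, Map2 (-1.39) and Gap43 (-0.93) fell in Snf5-/- cells and Gap43 (-1.09) in Brg1-/- cells. Of 4 glial markers tested, Fabp7 fell in Brg1-/- cells (-3.81). Over all genes tested, 7.46% fell in Snf5-/- and 12.9% in Brg1-/- cells. The part of these cell types in the guidance results was not tested.

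Among the 35 guidance genes tested, 11 changed in at least 1 of the 3 comparisons, 13 passed the threshold on 1 scale only and 11 on neither. Shares of all genes were worked out for each comparison and not for these pooled counts, which are a description only. In Snf5-/- cells 3 rose (Slit3, Sema5b and Sema6a) and 3 fell (Efnb2, Sema3c and Epha2), which is 17.1% of the guidance genes tested against 10.6% of all genes tested. By direction, 3.17% of all genes rose and 7.46% fell. Sema5b and Sema6a were dim in wild type, and the filter asked for 3 arrays of any genotype. They could thus be tested through the mutant arrays in which they were high. The same filter applied to all genes. In Brg1-/- cells Slit3 rose and 7 fell (Efnb2, Sema3a, Epha2, Plxnd1, Nrp1, Efna3 and Sema3c), or 22.9% of the guidance genes against 16.3% of all genes, of which 3.43% rose and 12.9% fell. Slit3, Efnb2, Epha2 and Sema3c changed in both mutants, in the same direction, and none changed in opposite directions. Both comparisons use the same 3 wild type arrays, so they are not independent of each other. The share of all genes that changed in both mutants was not worked out, so whether this overlap is particular to guidance genes is not known.

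The median change of the guidance genes was 0.14 in Snf5-/- and 0.01 in Brg1-/- cells on the quantile-normalized scale, against 0.02 for all genes in both. On the deposited scale it was -0.21 and -0.44. The scale sets the balance of the calls. On the quantile-normalized scale by itself, 4 guidance genes were higher and 3 lower in Snf5-/- cells, where 10.6% of all genes were higher and 7.47% lower (18.1% together). In Brg1-/- cells 6 were higher and 7 lower, against 14.9% and 12.9% of all genes (27.7% together). On the deposited scale by itself, 3 were higher and 6 lower in Snf5-/- cells, against 3.17% and 16.1% of all genes (19.3% together). For Brg1-/- cells 1 was higher and 15 lower there, against 3.43% and 44.1% of all genes (47.5% together). Counted by arrays, 10 guidance genes had every Snf5-/- array above every wild type array and 5 had every one below, against 19.5% and 16.1% of all genes (35.7% together). For Brg1-/- arrays 7 were wholly above and 8 wholly below, against 21% and 18.4% of all genes (39.4% together).

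**Figure D1:**
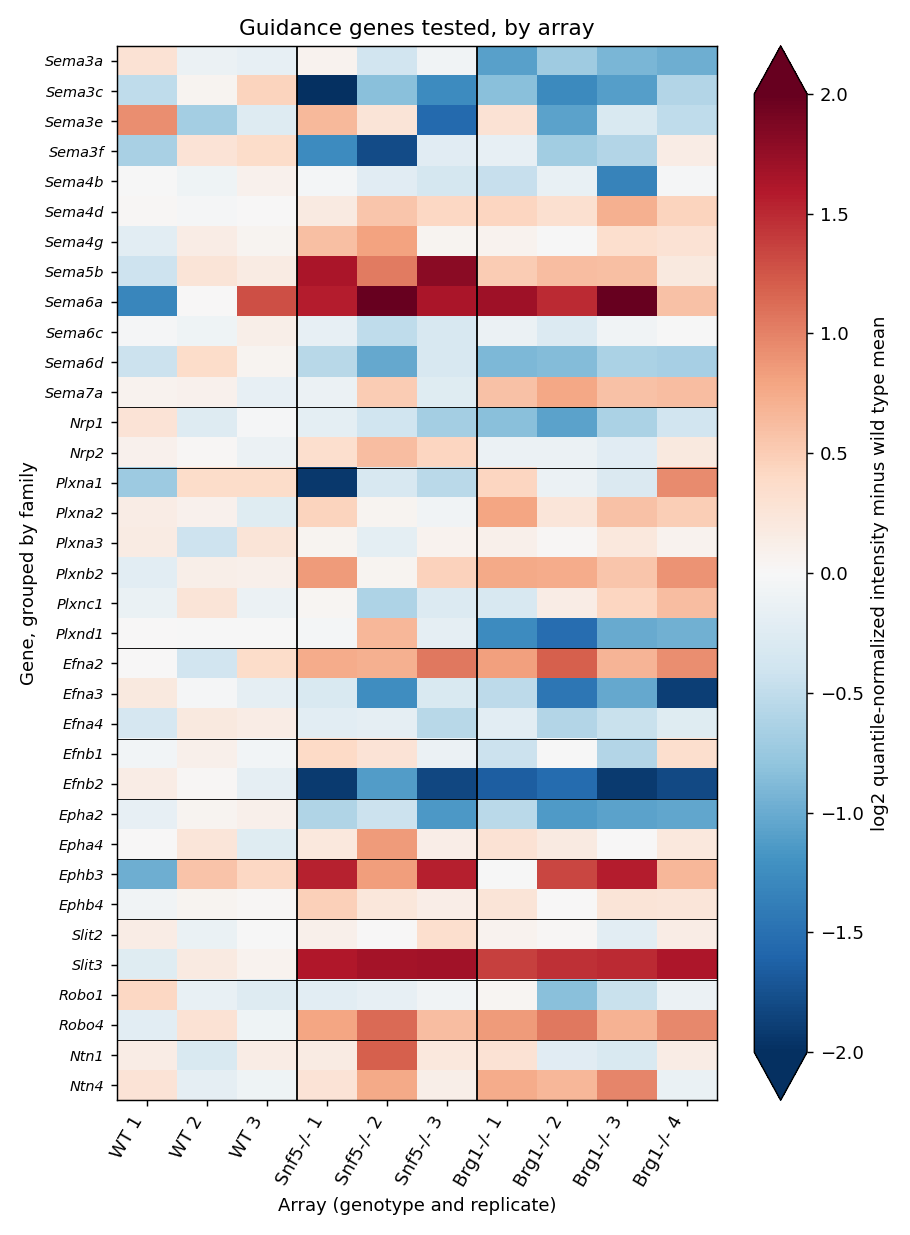
Each row is 1 of the 35 guidance genes tested, grouped by family, and each column 1 of the 10 arrays; colour is the log2 quantile-normalized intensity minus the mean of the 3 wild type arrays. Slit3 is high in all 7 mutant arrays and Efnb2 low in all 7, while Plxnd1 and Sema3a are low in the 4 Brg1-/- arrays and not in the 3 Snf5-/- arrays.

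**Figure D2:**
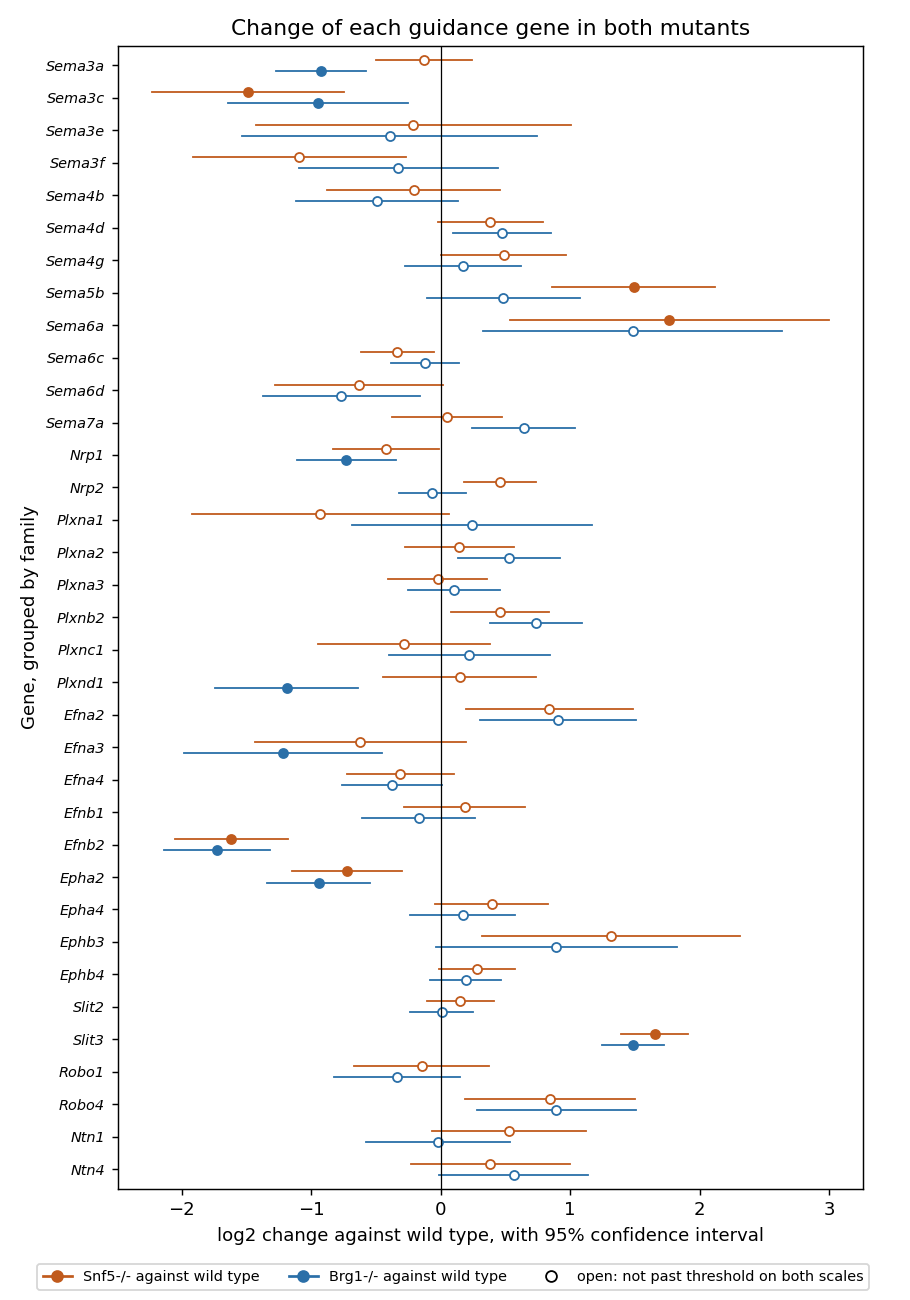
Points are log2 changes against wild type of each guidance gene in Snf5-/- and Brg1-/- cells on the quantile-normalized scale, with 95% confidence intervals; filled points passed the threshold on both scales. In both mutants Slit3 lies furthest from 0 relative to its interval on the higher side (1.65 and 1.48) and Efnb2 on the lower side (-1.62 and -1.73).

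Slit3, a secreted Robo ligand with known roles in mouse diaphragm and kidney development, showed the smallest adjusted p of the guidance genes in both mutants. On its probe set (1452296_at; gene at chr11:35121456-35708507, GRCm38.p6) the wild type arrays read 429, 569.7 and 529, the Snf5-/- arrays 1539.8, 1604 and 1621, and the Brg1-/- arrays 1307, 1397, 1419 and 1545. Every mutant array was thus above every wild type array. The change was 1.65 ± 0.12 in Snf5-/- (3.14-fold, limma, adjusted p = 9.12e-06) and 1.48 ± 0.11 in Brg1-/- (2.80-fold, adjusted p = 4.03e-06). On the deposited scale it was 1.38 and 0.98, with adjusted p of 3.95e-05 and 0.000206. The mutants differed from each other by -0.17 (95% confidence interval -0.41 to 0.07, adjusted p = 0.413).

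Slit2, the other Slit that was tested, binds the same receptors and did not follow Slit3. Its arrays read 3012, 2484 and 2721 for wild type, 2938, 2759.6 and 3445 for Snf5-/- and 2873, 2789, 2349 and 3027 for Brg1-/-, so that all 3 groups overlapped. Its change was 0.15 (95% confidence interval -0.11 to 0.41) in Snf5-/- and 0.01 (-0.24 to 0.25) in Brg1-/- cells on the quantile-normalized scale. On the deposited scale Slit2 was lower in Brg1-/- cells, at -0.60 (limma, adjusted p = 0.0137), which is close to the shift of all genes on that scale. Slit1 was at or below background on all 10 arrays.

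Of the Robo receptors, Robo1 and Robo4 were tested. Robo1, the widely expressed Slit receptor, overlapped between groups, at 252 ± 66.2 (SD, n = 3) in the wild type arrays, 223 ± 11.7 (n = 3) in the Snf5-/- arrays and 200.2 ± 50.9 (n = 4) in the Brg1-/- arrays. It passed the threshold only in Brg1-/- cells on the deposited scale, at -0.77 (limma, adjusted p = 0.0251). Robo4, known from endothelium, was dim, at 58.2 ± 10.9 in the wild type arrays, 105 ± 19.4 in the Snf5-/- arrays and 107 ± 11.3 in the Brg1-/- arrays. Its 7 mutant arrays were all above its wild type arrays. The filter asked for 3 arrays of any genotype, so Robo4 could be tested through its mutant arrays alone. It passed on the quantile-normalized scale in Brg1-/- cells (0.89, limma, adjusted p = 0.0339) but not on the deposited scale (0.49, adjusted p = 0.254). Robo3 was not tested.

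Of 12 semaphorins tested, 1 fell in both mutants, 1 fell in Brg1-/- cells and 2 rose in Snf5-/- cells. Sema3c, a secreted semaphorin needed for septation of the cardiac outflow tract in mouse, fell in both mutants. On its probe set (1420696_at; chr5:17574816-17730268) the wild type arrays read 1069.7, 1579.5 and 2067, the Snf5-/- arrays 294, 849 and 631, and the Brg1-/- arrays 849, 631, 706 and 1016. All mutant arrays were below all wild type arrays, although the lowest wild type array stood close to the highest Brg1-/- array. Sema3c changed by -1.49 ± 0.34 in Snf5-/- (2.81-fold lower, limma, adjusted p = 0.0106) and by -0.95 ± 0.32 in Brg1-/- (1.93-fold lower, adjusted p = 0.0441). Both calls depend on wild type replicate 3, without which the adjusted p was 0.0515 in Snf5-/- and 0.178 in Brg1-/- cells. The Brg1-/- call was also lost without wild type replicate 2 (0.111) or without Brg1-/- replicate 1 (0.0629), 2 (0.107) or 3 (0.0954).

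Sema3a, the secreted semaphorin that repels axons through Nrp1, fell in the Brg1-/- cells. Its representing probe set (1420416_at; chr5:13124822-13603485) read 548, 415 and 403 for wild type, 472, 344 and 429.6 for Snf5-/- and 212, 275, 239 and 229 for Brg1-/-. The 4 Brg1-/- arrays lay below all 6 others, which overlapped. The change in Brg1-/- was -0.93 ± 0.16 (1.90-fold lower, limma, adjusted p = 0.00127). In Snf5-/- it was -0.13 (95% confidence interval -0.50 to 0.24, adjusted p = 0.643). A second probe set, 1449865_at, gave -1.02 ± 0.21 in Brg1-/- (limma, adjusted p = 0.00415 over all probe sets) and -0.41 ± 0.22 in Snf5-/- (0.236).

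Sema5b, a membrane semaphorin with thrombospondin repeats, rose in the Snf5-/- cells. Its probe set (1422146_at; chr16:35541154-35664261) read 55.2, 88.7 and 82.5 for wild type, 229, 152 and 258 for Snf5-/- and 105, 114, 113 and 84.6 for Brg1-/-. The Snf5-/- arrays stood above all 7 others, and the wild type and Brg1-/- arrays overlapped. Sema5b changed by 1.49 ± 0.29 in Snf5-/- (2.81-fold, limma, adjusted p = 0.00431) and by 0.48 ± 0.27 in Brg1-/- (adjusted p = 0.21). The Snf5-/- call was lost on the deposited scale without wild type replicate 1 (limma, adjusted p = 0.0504), Snf5-/- replicate 1 (0.0541) or Snf5-/- replicate 3 (0.0643).

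Sema6a, a membrane semaphorin that binds class A plexins, was dim and varied most within groups among the genes that changed. Its arrays (1421414_a_at; chr18:47245254-47371200) read 19.1, 47.7 and 116 for wild type, of which the first was at background, 140.5, 201 and 146 for Snf5-/- and 153, 133, 211 and 70.7 for Brg1-/-. The Snf5-/- arrays lay above the wild type arrays, whereas the Brg1-/- arrays overlapped them. The change was 1.76 ± 0.57 in Snf5-/- (limma, adjusted p = 0.0492) and 1.48 ± 0.53 in Brg1-/- (adjusted p = 0.0557). The Snf5-/- call was lost in 13 of 19 alternatives, and without wild type replicate 1 the change was 1.11 (adjusted p = 0.152).

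The remaining 8 semaphorins did not pass on both scales. Sema7a, a lipid-anchored semaphorin that binds plexin C1 and integrins, read 285 to 324 in Brg1-/- and 169.8 to 203 in wild type arrays, with no overlap, and changed by 0.64 there on the quantile-normalized scale (limma, adjusted p = 0.0215) but by 0.22 on the deposited scale (0.397). Sema3f, the Nrp2 ligand, was -1.09 in Snf5-/- on the quantile-normalized scale (adjusted p = 0.0642) and -1.35 on the deposited scale (0.0102). Sema4b and Sema6d were lower in Brg1-/-, and Sema6c in both mutants, on the deposited scale only. Sema3e, Sema4d and Sema4g passed on neither scale in any comparison.

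The receptors of the semaphorins split between family members. Nrp1, the co-receptor of Sema3a and of vascular endothelial growth factor (VEGF), fell in Brg1-/- cells, where Nrp2 passed the threshold on the deposited scale only. The representing Nrp1 probe set (1448943_at; chr8:128358591-128505476) read 2079, 1435 and 1696 for wild type, 1501, 1306 and 1069.7 for Snf5-/- and 959, 819, 1105 and 1322 for Brg1-/-. The Brg1-/- arrays lay below the wild type arrays and the Snf5-/- arrays overlapped both. The change was -0.73 ± 0.18 in Brg1-/- (1.66-fold lower, limma, adjusted p = 0.00896) and -0.42 ± 0.19 in Snf5-/- (adjusted p = 0.145). The Brg1-/- value was at the threshold without wild type replicate 1 (-0.59, adjusted p = 0.0503).

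All 3 Nrp1 probe sets were lower in both mutants, and their calls differed. In Brg1-/- cells 1448944_at gave -0.51 ± 0.14 (limma, adjusted p = 0.0199 over all probe sets) and 1418084_at gave -0.48 ± 0.16 (0.0514). In Snf5-/- cells 1448944_at gave -0.51 ± 0.15 (0.0376) and passed on the deposited scale too (0.0194), whereas 1418084_at gave -0.35 ± 0.18 (0.203).

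Nrp2, the co-receptor of Sema3f and VEGF-C, read 1003, 959.6 and 870.1 for wild type, 1185, 1452 and 1264 for Snf5-/- and 871, 872, 807 and 1074 for Brg1-/- (1426528_at; chr1:62703317-62818692). The Snf5-/- arrays were above all others. Its change in Snf5-/- was 0.46 ± 0.13 on the quantile-normalized scale (limma, adjusted p = 0.0268) and 0.15 on the deposited scale (0.629), so the call rests on the scale. In Brg1-/- it was -0.07 (95% confidence interval -0.32 to 0.19) and, on the deposited scale, -0.59 (adjusted p = 0.0175).

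Plxnd1, the plexin that binds Sema3e without a neuropilin and patterns blood vessels in mouse, was the 1 plexin of 6 tested that fell. Its probe set (1451475_at; chr6:115954811-115995339) read 168, 167 and 166 for wild type, 162, 265 and 147 for Snf5-/- and 69.9, 57.8, 83 and 85.7 for Brg1-/-, with the second Brg1-/- array at background. All 4 Brg1-/- arrays were below the other 6. The change was -1.19 ± 0.25 in Brg1-/- (2.28-fold lower, limma, adjusted p = 0.00477) and 0.15 ± 0.27 in Snf5-/- (adjusted p = 0.757).

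Plxnb2, a receptor for class 4 semaphorins, and Plxna2, a receptor for Sema6a, were above wild type in all 4 Brg1-/- arrays. Plxnb2 read 1730.4, 2171 and 2157 in wild type and 3391, 3368, 2940.4 and 3729 in Brg1-/- arrays, a change of 0.74 ± 0.16 on the quantile-normalized scale (limma, adjusted p = 0.00555) and of 0.13 on the deposited scale (0.57). Plxna2 changed by 0.53 (adjusted p = 0.0458) and by 0.10 (0.716) on the same scales. Neither call held on both scales. Plxna1, Plxna3 and Plxnc1 passed on neither scale in any comparison.

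**Figure D3:**
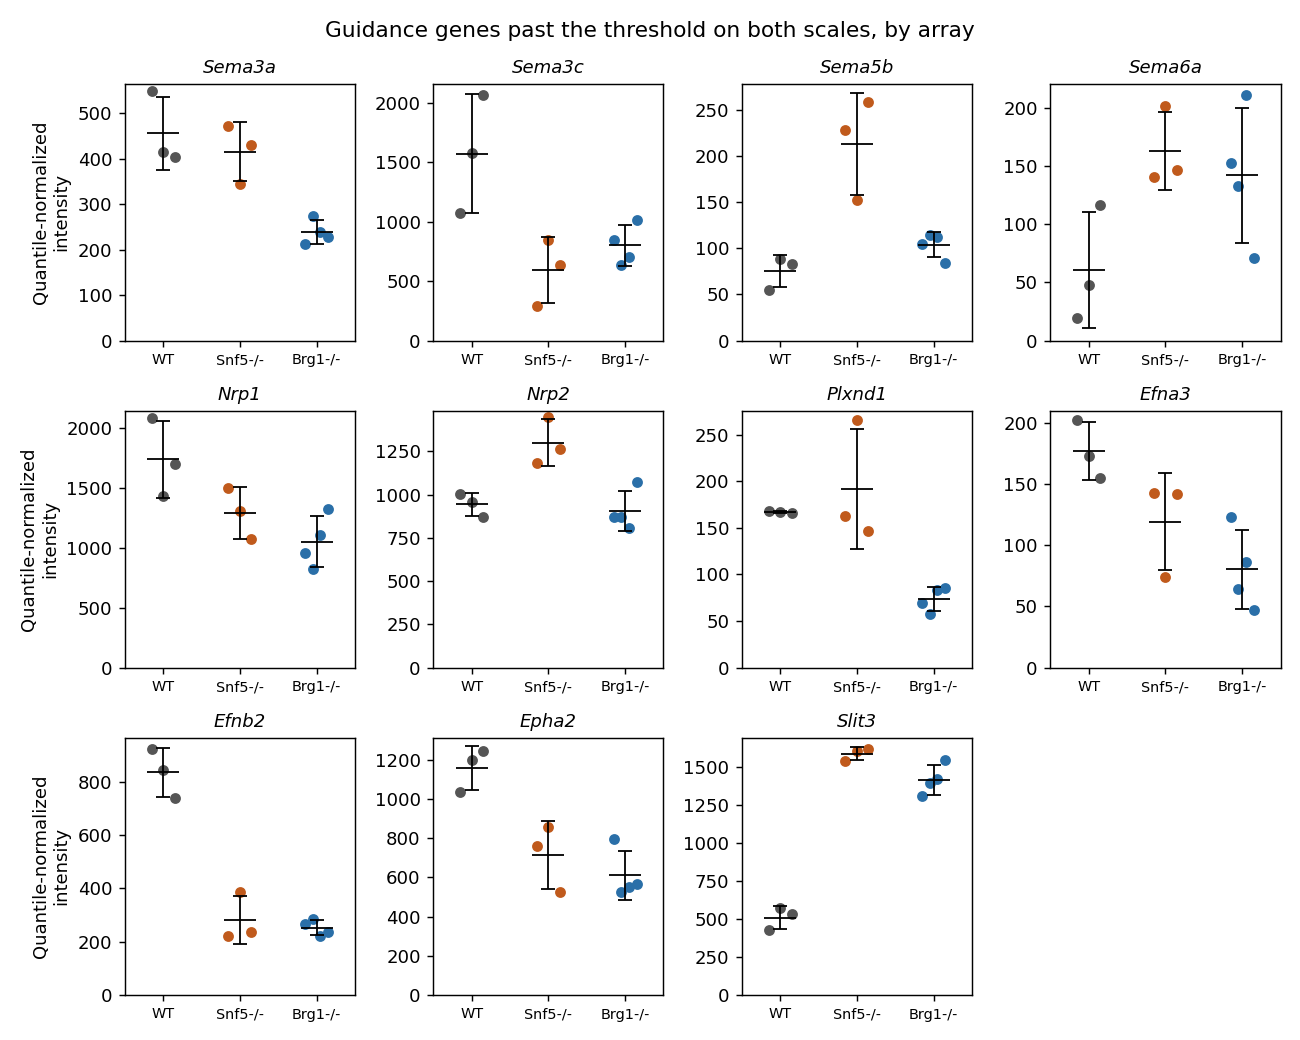
Each panel shows the quantile-normalized intensity of 1 of the 11 guidance genes past the threshold on both scales in at least 1 comparison; points are arrays, long bars group means and whiskers 1 SD (3 wild type, 3 Snf5-/- and 4 Brg1-/- arrays). Slit3 and Efnb2 show groups far apart, and Sema3c and Sema6a show wild type arrays spread over a wide range (1069.7 to 2067 and 19.1 to 116).

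Efnb2, a membrane ligand of EphB receptors and EphA4 that marks arteries, fell most among the guidance genes in both mutants. Its representing probe set (1419638_at; chr8:8617235-8661242) read 921, 845 and 737 for wild type, 221, 385 and 234 for Snf5-/- and 266, 285, 220.3 and 237 for Brg1-/-. The lowest wild type array was far above the highest mutant array, and the mutants overlapped each other. Efnb2 changed by -1.62 ± 0.20 in Snf5-/- (3.07-fold lower, limma, adjusted p = 0.000226) and by -1.73 ± 0.19 in Brg1-/- (3.31-fold lower, adjusted p = 5.55e-05). In bulk RNA, fewer cells of a type and less RNA per cell cannot be told apart.

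The size of the Efnb2 change differed between its 4 probe sets, all of which were lower in both mutants. In Snf5-/- cells the other 3 gave -1.11, -1.59 and -1.39, each past the threshold (limma, adjusted p over all probe sets = 0.0344, 0.00282 and 0.0185). In Brg1-/- cells 1449548_at gave -0.81 ± 0.26 (0.038), while 1419639_at gave -0.67 ± 0.30 (0.125) and 1449549_at -0.48 ± 0.32 (0.314). The last 2 passed on the deposited scale, at 0.00747 and 0.046.

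**Figure D4:**
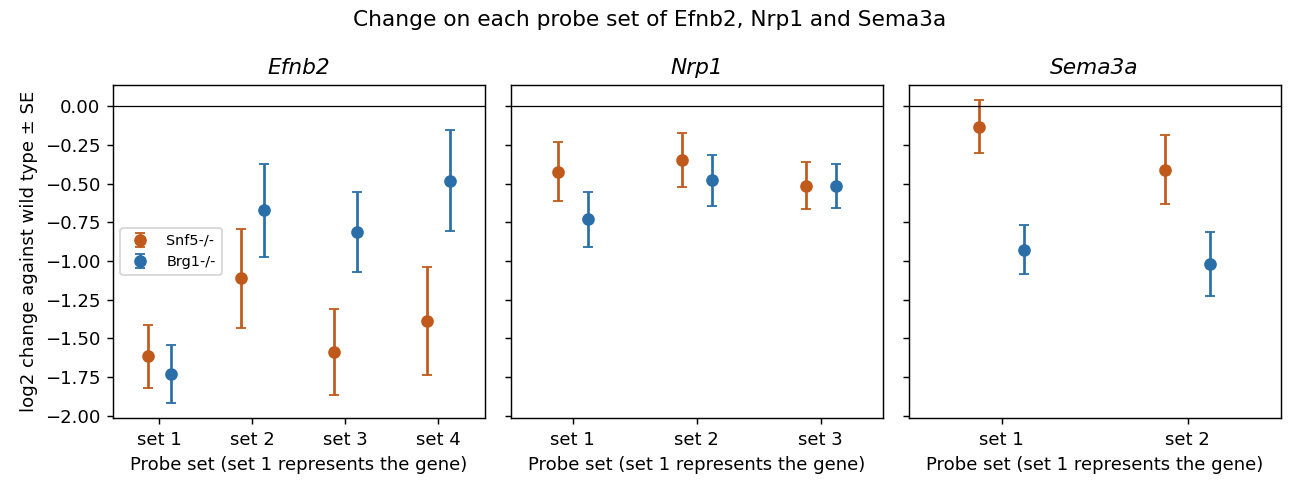
Log2 changes against wild type with their SE for each tested probe set of Efnb2 (4), Nrp1 (3) and Sema3a (2), in Snf5-/- and Brg1-/- cells on the quantile-normalized scale; set 1 represents the gene. Every point is below 0, and in Brg1-/- cells the Efnb2 change shrinks from -1.73 on set 1 to -0.48 on set 4.

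Because Efnb2, Plxnd1, Nrp1 and Robo4 are also known from blood vessels, markers of vessel cells are given beside them. Of 11 endothelial markers on the array 4 passed the filter on low signal, Tie1 was at or below background on all 10 arrays and Pecam1 on 9. The summed level of all 11 was 1462 to 1664 for wild type, 1206 to 1417 for Snf5-/- and 1228 to 1363 for Brg1-/-. In Brg1-/- cells Eng (-0.72) and Kdr (-0.79) fell while Tek rose (1.89), and in Snf5-/- cells Tek rose (1.41). All 7 smooth muscle and pericyte markers were tested. Of these, 6 fell in Brg1-/- cells, with a summed level of 39612 to 50092 against 51281 to 51822 in wild type, and in Snf5-/- cells 1 fell, with a sum of 39761 to 48919. Over all genes tested, 12.9% fell in Brg1-/- and 7.46% in Snf5-/- cells. Acta2 (means of 25375 in wild type and 24922 in Brg1-/-) and Tagln (20283 and 15822) made up most of the sum. The largest falls in Brg1-/- cells were of dimmer markers, Rgs5 (-1.86), Des (-1.85), Cnn1 (-1.40) and Myh11 (-1.30). The part of vessel cells in the changes of Efnb2, Plxnd1, Nrp1 and Robo4 was not tested.

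Efna3, a lipid-anchored ligand of EphA receptors, fell in Brg1-/- cells. Its probe set (1431170_at; chr3:89313899-89322939) read 202, 172 and 155 for wild type, 142, 73.8 and 141 for Snf5-/- and 123, 64.6, 86.6 and 47.5 for Brg1-/-. All mutant arrays were below the wild type arrays. The change was -1.22 ± 0.35 in Brg1-/- (2.32-fold lower, limma, adjusted p = 0.0226) and -0.62 ± 0.38 in Snf5-/- (adjusted p = 0.283). The Brg1-/- call missed the threshold when wild type replicate 1 (limma, adjusted p = 0.0849), wild type replicate 2 (0.0633) or Brg1-/- replicate 2 (0.0533) was left out.

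The other 3 ephrins tested did not pass on both scales. Efna2 was dim, at 48.6 to 82 in wild type and 102 to 145 in Brg1-/- arrays, and gave 0.90 on the quantile-normalized scale (limma, adjusted p = 0.0294) and 0.50 on the deposited scale (0.22). Efna4 and Efnb1 were lower in Brg1-/- cells on the deposited scale only, at -0.78 (0.00372) and -0.65 (0.0173). On the quantile-normalized scale Efnb1 gave 0.18 in Snf5-/- and -0.17 in Brg1-/- cells, and over its 3 probe sets, which differed in sign, from -0.013 to 0.38 and from -0.28 to 0.0060.

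Epha2, a receptor tyrosine kinase for ephrins of class A, fell in both mutants. Its probe set (1421151_a_at; chr4:141301221-141329384) read 1034, 1201 and 1248 for wild type, 763, 858 and 524 for Snf5-/- and 797, 527, 553 and 565 for Brg1-/-. No mutant array reached the lowest wild type array. Epha2 changed by -0.73 ± 0.19 in Snf5-/- (1.65-fold lower, limma, adjusted p = 0.0232) and by -0.94 ± 0.18 in Brg1-/- (1.92-fold lower, adjusted p = 0.00269). The Snf5-/- call was lost without wild type replicate 2 (0.073), wild type replicate 3 (0.0873) or Snf5-/- replicate 3 (0.0701), and the Brg1-/- call was kept in every alternative planned.

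The 3 other Eph receptors tested passed on neither scale. Ephb3 read 48.3 to 142 in wild type and 171 to 281 in Snf5-/- arrays, which did not overlap, with a change of 1.31 ± 0.46 (limma, adjusted p = 0.0658). Ephb4, the receptor paired with Efnb2 in vessels, changed by 0.28 (95% confidence interval -0.01 to 0.58) in Snf5-/- and 0.19 (-0.09 to 0.47) in Brg1-/- cells. Epha4, which binds ephrins of both classes, gave 0.39 (-0.04 to 0.83) and 0.17 (-0.24 to 0.58). On a second Epha4 probe set, 1421929_at, the change in Snf5-/- was 1.05 ± 0.31, past the threshold on the quantile-normalized scale only (limma, adjusted p = 0.0355 over all probe sets, and 0.0812 on the deposited scale).

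Neither netrin tested passed the threshold in any comparison. Ntn1, the founding netrin, was 213 ± 36.5 (SD, n = 3) in the wild type arrays, 321 ± 139.9 (n = 3) in the Snf5-/- arrays and 211 ± 41.7 (n = 4) in the Brg1-/- arrays. The Snf5-/- mean rests on replicate 2, at 483, with the other 2 at 237 and 244. Snf5-/- replicate 2 was also the array with the highest summed level of macrophage and leukocyte markers, 12451 against 3389 to 3535 in the other Snf5-/- arrays, and their part in the Ntn1 value was not tested. Ntn4, a netrin of basement membranes, was 139.8 ± 23.6 (n = 3), 184 ± 44.1 (n = 3) and 213 ± 62.2 (n = 4), and its change in Brg1-/- was 0.56 (95% confidence interval -0.01 to 1.14).

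Set directly against each other, the mutants differed in 3 guidance genes, all lower in Brg1-/- cells. This is 8.57% of the guidance genes tested against 2.45% of all genes, of which 0.357% were higher and 2.1% lower in Brg1-/- cells. On the quantile-normalized scale 0 guidance genes were higher and the same 3 lower, against 2.14% and 2.3% of all genes (4.44% together). On the deposited scale 0 were higher and 4 lower, against 0.369% and 3.93% (4.3% together). By arrays, 2 guidance genes lay wholly above and 4 wholly below the Snf5-/- arrays, against 8.28% and 8.67% of all genes (16.9% together). Plxnd1 differed by -1.34 ± 0.25 (2.52-fold, limma, adjusted p = 0.0149), Sema3a by -0.79 ± 0.16 (1.73-fold, adjusted p = 0.0187) and Nrp2 by -0.52 ± 0.12 (1.44-fold, adjusted p = 0.0327). For Plxnd1 and Sema3a the 4 Brg1-/- arrays were below all Snf5-/- and wild type arrays, whereas for Nrp2 they overlapped the wild type arrays and the Snf5-/- arrays stood above both. The median difference of the guidance genes was -0.14, against -0.01 for all genes, and -0.30 against -0.20 on the deposited scale.

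Plxnd1 and Sema3a kept their calls against wild type in Brg1-/- cells under every alternative planned, but not their difference between the mutants. Plxnd1 missed the threshold without Snf5-/- replicate 2 (-1.08, limma, adjusted p = 0.0556) and in a fit of only the 2 mutant groups (-1.34, 0.0542), and Sema3a without Snf5-/- replicate 1 (0.0573) or Brg1-/- replicate 3 (0.0547). On the deposited scale the Sema3a difference was lost without Snf5-/- replicate 1 (limma, adjusted p = 0.0657), Snf5-/- replicate 3 (0.0638) or Brg1-/- replicate 1 (0.0518). Snf5-/- replicate 2, the array with the highest summed level of macrophage and leukocyte markers, was also the highest Snf5-/- array for Plxnd1 and Nrp2, and the part of those cells in these differences was not tested. The second Sema3a probe set gave -0.61 ± 0.21 (limma, adjusted p = 0.119 over all probe sets). The Nrp2 difference was lost in 7 of 20 alternatives, among them each fit without 1 of Brg1-/- replicates 1 to 3, Snf5-/- replicate 2 or wild type replicate 2 (adjusted p from 0.0528 to 0.0983). On the deposited scale it was lost without any 1 of Snf5-/- replicates 1 to 3 or Brg1-/- replicates 1 to 3 (limma, adjusted p from 0.0541 to 0.116). Sema5b differed by -1.01 ± 0.27, past the threshold on the deposited scale (0.0395) and not on the quantile-normalized scale (0.0565). Efnb2 differed by -0.11 (95% confidence interval -0.52 to 0.29), Epha2 by -0.22 (-0.61 to 0.18) and Sema3c by 0.54 (-0.15 to 1.24), and none of these passed.

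A total of 21 guidance genes were too dim to be tested, and 0 of them passed the threshold when the filter was dropped. They are Sema3b, Sema4a, Sema4f, Sema5a, Sema6b, Plxnb3, Epha1, Epha3, Epha5, Epha6, Epha7, Epha8, Ephb6, Efna1, Efna5, Efnb3, Slit1, Robo3, Ntn3, Ntng1 and Ntng2. Slit1, Sema4a, Sema6b and Ntng2 were at or below background on all 10 arrays. The largest share lay among EphA receptors, of which 2 of 8 were tested. In the fit without the filter Epha3 came closest, at 1.09 in Brg1-/- cells (limma, adjusted p = 0.068), and Efna5, with no array at background, gave 0.17 and -0.04.

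Partners of the guidance genes were followed in 5 lists. Over all genes tested, 3.17% rose and 7.46% fell in Snf5-/- and 3.43% rose and 12.9% fell in Brg1-/- cells, and on the deposited scale by itself 16.1% and 44.1% were lower. Of 5 netrin receptors and co-receptors tested, Unc5b fell in Brg1-/- cells (-0.57 ± 0.13, limma, adjusted p = 0.00605), and none changed in Snf5-/- cells on either scale. The median of this list was -0.18 in Snf5-/- and -0.25 in Brg1-/- cells. Dscam gave 1.73 ± 0.56 in Brg1-/- on the quantile-normalized scale (0.0361, against 0.0725 on the deposited scale). Dcc, Neo1 and Unc5c did not pass on both scales. Of 9 other guidance cues listed only Nell2, a Robo3 ligand in mouse, was tested, and it rose in both mutants, by 1.29 ± 0.36 in Snf5-/- (0.029) and 1.79 ± 0.34 in Brg1-/- (0.0025).

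VEGF ligands and receptors share neuropilins with the class 3 semaphorins. Of 7 tested, 0 rose and 1 fell in Snf5-/- cells, and 0 rose and 3 fell in Brg1-/- cells, against 7.46% and 12.9% of all genes that fell. Lower on the deposited scale by itself were 2 and 3, against 16.1% and 44.1% of all genes. Flt4, the VEGF-C receptor of lymphatic endothelium, fell in both, by -1.62 ± 0.19 (limma, adjusted p = 0.000144) and -1.41 ± 0.17 (0.000133). Vegfc, its ligand, fell in Brg1-/- cells (-1.33 ± 0.35, 0.014), as did Kdr, the main VEGF-A receptor (-0.79 ± 0.19, 0.00942). Vegfa, Vegfb, Vegfd and Flt1 did not pass in either mutant. The median of the list was -0.33 in Snf5-/- and -0.24 in Brg1-/- cells.

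Inside the cell, 21 partners of semaphorin and plexin signalling were tested, of which 0 rose and 1 fell in Snf5-/- and 0 rose and 4 fell in Brg1-/- cells, against 7.46% and 12.9% of all genes that fell. Counts of lower genes were 5 and 13 on the deposited scale by itself, where 16.1% and 44.1% of all genes were lower. Rras2, a Ras-family GTPase, fell in Snf5-/- (-0.51 ± 0.15, limma, adjusted p = 0.0312). The 4 in Brg1-/- were Limk1, the kinase that inactivates cofilin (-1.27 ± 0.30, 0.00849), Mical2, which oxidizes actin (-0.92 ± 0.20, 0.00578), Dpysl3, a collapsin response mediator (-0.88 ± 0.19, 0.00449), and the Src-family kinase Fyn (-0.63 ± 0.14, 0.00668). The medians were -0.10 and -0.11. Farp1 gave 0.40 ± 0.10 in Snf5-/- on the quantile-normalized scale (0.0151 there, 0.792 on the deposited scale).

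Of 27 partners of Eph, Slit-Robo and netrin signalling tested, 0 rose and 5 fell in Snf5-/- and 0 rose and 3 fell in Brg1-/- cells, with medians of 0.02 and -0.03, against 7.46% and 12.9% of all genes that fell. The quantile-normalized scale by itself had 3 higher and 5 lower in Snf5-/- cells, against 10.6% and 7.47% of all genes. In Brg1-/- cells it had 4 higher and 3 lower, against 14.9% and 12.9%. The deposited scale had 0 higher in both and 8 and 17 lower, where 16.1% and 44.1% of all genes were lower. Rasa1, a Ras GTPase-activating protein, fell in both (-0.59 ± 0.13, limma, adjusted p = 0.00883, and -0.62 ± 0.12, 0.0028), as did Enah, which promotes actin filament growth (-0.93 ± 0.22, 0.012, and -0.99 ± 0.21, 0.0039). The kinase Pak3 fell in Brg1-/- cells (-0.82 ± 0.16, 0.00261). Sdcbp, Gpc1 and Chn1 complete the count in Snf5-/- and are named for that after their values were seen. In the direct comparison of the mutants no gene of the 5 lists passed on both scales. On the quantile-normalized scale 1 did, Cdc42 (0.38 ± 0.09, limma, adjusted p = 0.0395), and on the deposited scale 2 did, both lower in Brg1-/- cells, Fyn (-0.72, 0.0382) and Dpysl3 (-0.78, 0.0178). Of all genes 2.45% passed on both scales, 4.44% on the quantile-normalized scale and 4.3% on the deposited scale.

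**Figure D5:**
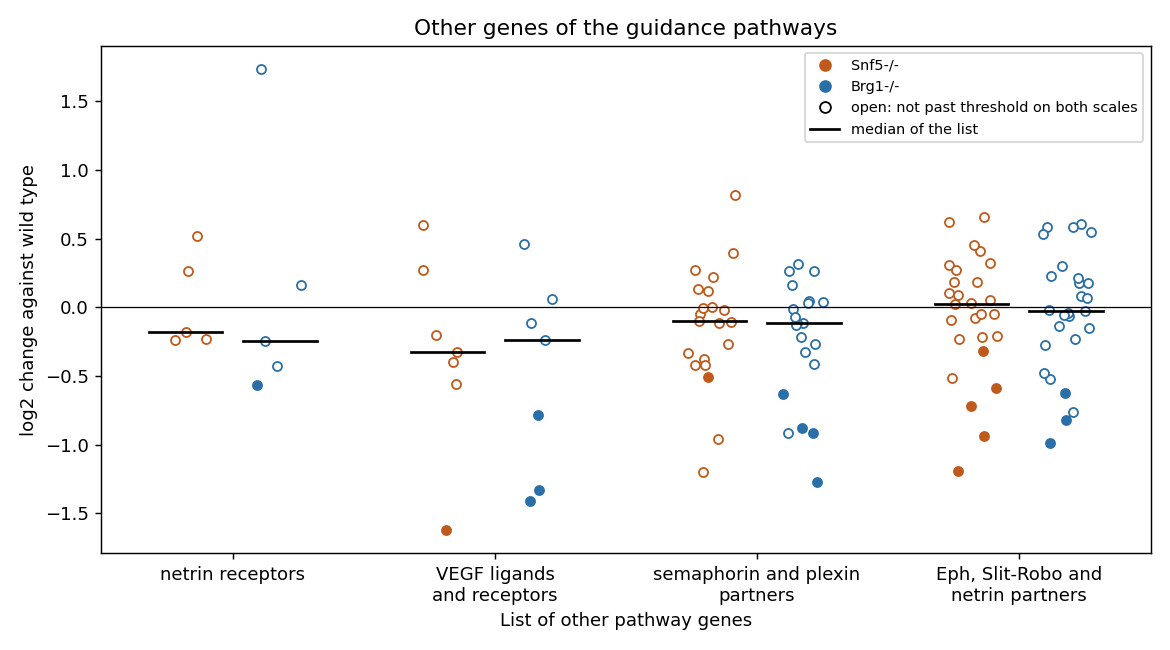
Points are log2 changes against wild type of each tested gene in 4 lists of pathway partners, in Snf5-/- and Brg1-/- cells on the quantile-normalized scale; filled points passed the threshold on both scales and black bars are list medians. All filled points drawn lie below 0, and the medians of these 4 lists lie between -0.33 and 0.02. The list of other guidance cues is not drawn, and its only tested gene, Nell2, rose in both mutants (1.29 and 1.79).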

How the data were processed

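Biotin-labelled RNA of 10 MEF samples was measured on Affymetrix arrays. The deposited table holds linear probe set intensity from MAS5, per the submitters' processing notes; the MAS5 version, scaling target and filters are not given in the sources used here. From the deposited intensity, log2 values were taken with no pseudocount, both as deposited and after quantile normalization (limma 3.58.1, R 4.3.3). Probe sets with a single symbol (20380) were assigned to genes through the GEO platform annotation, and 691 with several symbols and 1606 not listed were left out, as were the 64 control probe sets. The probe set of highest mean represented a gene, and it was tested where it reached the 40th percentile of its array in at least 3 arrays.

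Each gene was fitted in limma with 3 group means and eBayes with a trend on intensity, which left 7 residual degrees of freedom. Tests were two-sided, adjusted by Benjamini-Hochberg within each of 3 comparisons, at a threshold of 0.05. Each fit over probe sets was adjusted over all probe sets tested. Each array's background was the brightest of its 27 Bacillus subtilis controls (26.7 to 57.4 on the deposited scale). The number of arrays limits the precision. Gene positions and promoters are RefSeq's, in GRCm38.p6.

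Genes are named by rule: every guidance gene past the threshold on both scales with its value in every array, the rest by name, range and count, and up to 4 genes of smallest adjusted p per partner list and comparison. The values of 2 genes that this rule takes in, higher in both mutants on the quantile-normalized scale only, are not reported here. The members, lists and markers were chosen with earlier results of these data known. Alternatives covered the scale, the filter, a pseudocount of 16, a fit of every probe set, the trend and array weights. They also covered the groups in the fit, the replicate block and leaving out each array. In all of them a named gene was read on its representing probe set. Protein sequences were not used here.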

Additional observations from a re-analysis of the deposited data

Results flagged for a closer look

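In the 35 groups of 4 Brg1-/- arrays, 1 for each guidance gene tested, 2 held an array far from the other 3, and chance gives about 1 in 20 groups. Epha2 read 797 in Brg1-/- replicate 1, above 527 to 565 in the other 3. Ephb4 read 307 in Brg1-/- replicate 2, below 362 to 364 in the other 3.

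The change against wild type differed between the mutants, by the direct test of Brg1-/- against Snf5-/- arrays (limma, adjusted over all genes tested), for 3 guidance genes. The difference was -1.34 for Plxnd1 (adjusted p = 0.0149), -0.79 for Sema3a (0.0187) and -0.52 for Nrp2 (0.0327). For Plxnd1 and Sema3a the 4 Brg1-/- arrays were the low ones, and for Nrp2 the 3 Snf5-/- arrays were the high ones.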

How the results depend on the processing

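Slit3 and Efnb2 in both mutants and Epha2 and Sema3a in Brg1-/- cells kept their direction and call in all 20 alternatives planned. Sema5b in Snf5-/- and Plxnd1 in Brg1-/- cells kept theirs in the 19 that tested them. Sema5b lost its call on the deposited scale without 1 of 3 arrays (limma, adjusted p from 0.0504 to 0.0643). These calls are of the representing probe sets. For Efnb2 in Brg1-/- cells, 1419639_at and 1449549_at did not pass on the quantile-normalized scale (limma, adjusted p = 0.125 and 0.314 over all probe sets). On the quantile-normalized scale 7, 13 and 3 guidance genes passed the threshold in Snf5-/- cells, in Brg1-/- cells and between the mutants. Leaving out each array in turn gave 4 to 7, 8 to 14 and 1 to 4, and on the deposited scale, chosen after seeing the data, 5 to 10, 10 to 18 and 1 to 4. A filter at the 60th percentile left 16 guidance genes tested and 8 past the threshold in Brg1-/- against wild type, and a fit of only the compared groups left 1 between the mutants. The cause was not tested. Shares of all genes are not given for the counts under these alternatives, which are a description only. The median change in Snf5-/- was 0.14, and -0.21 on the deposited scale, 0.052 on the median-centred scale, 0.085 with no filter, 0.011 with the stricter filter, -0.078 with every probe set fitted and 0.19 with array weights. In Brg1-/- it was 0.01, and -0.44 on the deposited scale, -0.092 with the stricter filter and -0.10 with every probe set. Between the mutants it was -0.14, and -0.30 on the deposited scale. With 1 array left out the 3 medians ran from 0.061 to 0.25, from -0.059 to 0.072 and from -0.16 to -0.070, and on the deposited scale from -0.31 to 0.0089, from -0.63 to -0.26 and from -0.37 to -0.22. Nrp2 in Snf5-/- ran from -0.011 (without wild type replicate 3, deposited scale) to 0.52 with 1 array left out. The deviations of arrays from the mean of their genotype were correlated between arrays of different genotypes. Same-numbered arrays gave -0.07 to 0.10 and differently numbered arrays -0.12 to 0.09. The labels do not say whether the numbers pair samples, and low correlations cannot exclude a pairing that touches only some genes. With the replicate block 8, 13 and 3 guidance genes passed, also given without a share of all genes. Low signal limits Sema6a, Sema5b, Robo4 and the 21 genes not tested. The filter asked for 3 arrays of any genotype, so genes dim in wild type, such as Robo4, Efna2, Sema5b and Sema6a, could be tested through mutant arrays.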

Other observations

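Sema3e, the secreted ligand of Plxnd1, varied more within groups than any other guidance gene tested, with a residual SD of 0.85 on the log2 scale. Its highest array in each genotype was the one labelled replicate 1. The representing probe set read 308 for that wild type array against 101 and 135, 253 for the Snf5-/- array against 194 and 55, and 198 for the Brg1-/- array against 77.2, 131 and 114. The same array was the highest of its genotype on the other 2 probe sets, where wild type read 119 and 172, Snf5-/- read 116 and 156 and Brg1-/- read 108 and 135. Slit3 was among the steadiest, with a residual SD of 0.13. This pattern was noticed in the data and no test was made of it.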
